A study of Mus musculus with 6 samples.

Results

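Nucleolar ribosome biogenesis factors are the proteins that turn the ribosomal RNA precursor into ribosomal subunits, and here they were examined in mouse tibialis anterior, the shin muscle that lifts the foot and consists mostly of fast fibres. Members were chosen by name from the platform's gene symbols: the stems Utp, Nop, Nol, Rrp, Gnl and Imp followed by a digit, together with Bop1, Wdr12, Pes1, Fbl, Dkc1, Ncl and Npm1. The rule named 49 genes. Of these, 46 had a probe set annotated to that gene alone and make up the set described here, out of 22180 genes measured. Fbl, Rrp8 and Utp14b were named only on probe sets that carry a further gene, and they were not analysed here. No measured value entered the choice, although the set was drawn up with earlier results of these arrays known.

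The 6 arrays came from male C57Bl/6 mice sampled at 18 weeks of age, each array from the muscle of a mouse named in its label. The 3 sham mice had a sham operation at 11 weeks and the 3 castrated mice had castration surgery at the same age, with 7 weeks of recovery in both groups. The labels call the sham samples fasted and the castrated samples refed. The series text describes an overnight fast, after which mice stayed fasted or ate for 30 minutes, followed by a further 4 hours without food for all, whereas the protocol attached to each sample gives the meal for every mouse. Surgery and the feeding label divide the samples in the same way, so their effects cannot be told apart in any value below. Castration takes away most circulating androgen, and the series set out to describe muscle gene expression after the loss. Values are log2 expression values of Affymetrix probe sets, so a difference of −1 means a halved signal, and every difference is castrated minus sham. Each sample is 1 muscle extract, and a p-value here reflects the spread among these extracts. For p-values, standard errors and intervals, the limma test draws each gene's own spread toward that typical of all genes.

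Ribosomes are assembled largely in the nucleolus. RNA polymerase I transcribes a long precursor, small nucleolar ribonucleoproteins (snoRNPs) guide its chemical modification, the small-subunit processome folds and cuts the part that becomes the small (40S) subunit, and a separate set of assembly factors builds the large (60S) subunit. In skeletal muscle the supply of ribosomes is a known determinant of the capacity for protein synthesis, and it changes with growth, disuse, feeding and hormones.

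Most of the nucleolar factors had slightly lower values in castrated muscle, but no single factor passed the test over all genes. Of the 46 members, 38 had a difference below 0, where 51.5% of all genes tested did. The median difference was −0.12 on the log2 scale, a change of −8.05% in signal, against −0.0056 over all genes. The differences ran from −0.41 for Utp11 to 0.13 for Nol12. None reached a limma adjusted p of 0.05, a threshold that 0.0135% of all genes passed in either direction and 0.00902% as lower, and the smallest adjusted p among the members was 0.578, for Utp11. At an unadjusted p under 0.05 there were 2 members, Utp11 and Rrp9, both lower, where 3.51% of all genes were lower at that level, and 0 members were higher, where 3.62% of all genes were.

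All 3 castrated samples lay below all 3 sham samples for 10 members, or 21.7%, where 7.02% of all genes did so. Above the 50th percentile of mean value the shares were 23.3% of the members and 10% of all genes. The 10 members were Utp11, Rrp9, Utp4, Nop2, Rrp12, Rrp15, Nop10, Pes1, Utp15 and Rrp1. In no member did all castrated samples lie above all sham samples, a pattern seen in 5.73% of all genes. The count of 10 depends on how the arrays are scaled to each other. It was 7 after quantile normalization, 7 after cyclic loess normalization and 17 after centring each array on its median, with 7.07%, 6.88% and 10.6% of all genes in the same state. Utp11, Rrp9, Rrp15, Pes1 and Rrp1 were lower without overlap under all 4 scalings. The share of all genes in that state under all 4 was not determined, so these 5 cannot be set against a background.

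With each member centred on its own mean over the 6 arrays, the median of the 46 was 0.044, 0.030 and 0.082 in sham samples 1, 2 and 3. In castrated samples 1, 2 and 3 it was −0.095, −0.059 and −0.0080. Castrated sample 1 was the lowest and castrated sample 3 the nearest to sham, and the groups' medians did not overlap. Nor did they overlap, at smaller distances, for all genes or for all genes above the 50th percentile of mean value. For the latter they were 0.0135, 0.0113 and 0.015 in sham and −0.038, 0.0086 and −0.013 in castrated samples, with castrated sample 1 again the lowest. After quantile and cyclic loess normalization the members' median was instead lowest in castrated sample 2 (−0.065 and −0.066, against −0.054 and −0.051 in castrated sample 1). In castrated sample 3 it stood at 0.0053 and 0.0059, still below the sham samples. In castrated sample 1 a total of 39 members lay below their own mean, in castrated sample 2 there were 34, and in castrated sample 3 there were 25, against 11 to 15 in the sham samples. Over all genes the share below their own mean was between 47.4% and 51.5% on each array. Castrated sample 1 held the lowest value of the 6 for 20 members, and sham sample 3 held the highest for 19.

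**Figure D1:**
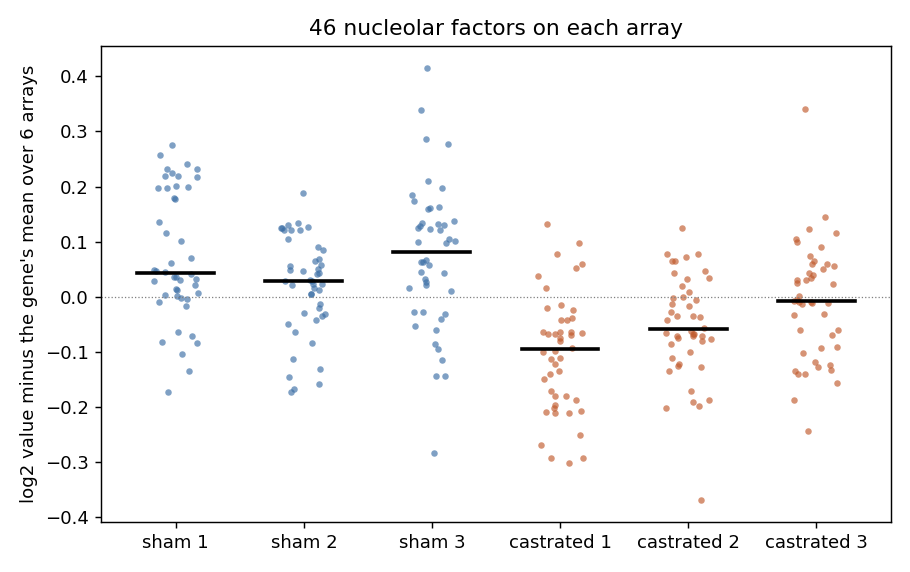
Each point is 1 of the 46 nucleolar factors on 1 array, as its log2 value minus that gene's mean over the 6 arrays (vertical axis), and black bars are array medians. The sham medians run from 0.030 to 0.082 and the castrated medians from −0.095 to −0.0080, with wide overlap of single genes.

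The arrays differed slightly in a way that depends on level. Among the 11090 genes with a mean value above the 50th percentile, 59.2% had a difference below 0, with a median of −0.030. Of the nucleolar factors, 43 lie in that range, and 36 of those were below 0, with a median of −0.12. After quantile normalization the corresponding share of all genes in the upper range was 54.8%, and 37 of the 46 members were below 0 with a median of −0.091. After cyclic loess it was 53.6%, with 36 members below 0 and a median of −0.093. Centring on array medians moved the share of all genes below 0 from 51.5% to 61.6%, and the share in the upper range to 70%. Then 42 members were below 0, with a median of −0.16. Under the 4 scalings the members' median minus that of all genes lay between −0.116 and −0.080. The members lay nearer to genes of the upper range. Their medians were −0.030 as deposited, −0.014 after quantile normalization, −0.011 after cyclic loess and −0.067 after centring.

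**Figure D2:**
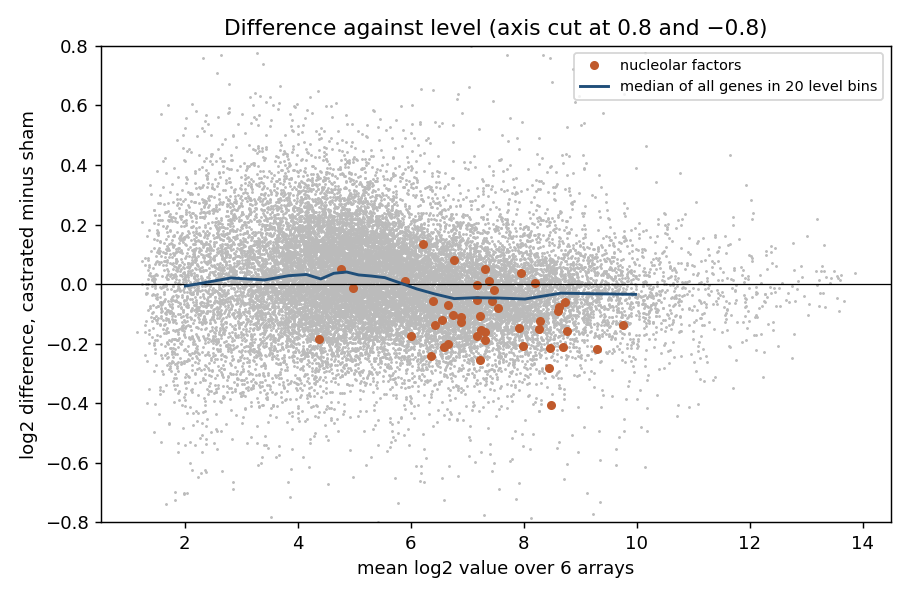
The log2 difference, castrated minus sham (vertical axis), is plotted against the mean log2 value over 6 arrays (horizontal axis) for all 22180 genes (grey), with 37 genes beyond the vertical limits of 0.8 and −0.8 not shown. The line joins medians of all genes in 20 level bins, which run from 0.041 to −0.050, and the nucleolar factors (orange) lie mostly below it.

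The small-subunit processome and pre-40S members include Utp11, the member with the lowest difference. Of the 22 measured, 19 were below 0, with a median of −0.12. Utp11, a processome component (Entrez 67205), stood at 8.70, 8.59 and 8.77 in the sham samples and at 8.31, 8.12 and 8.42 in the castrated samples. Every castrated value lay below every sham value, with the gap between the groups at its narrowest between castrated sample 3 and sham sample 2. The difference was −0.41 (standard error 0.11), a 1.32-fold lower signal. Its unadjusted 95% interval ran from −0.66 to −0.15, and its limma adjusted p was 0.578.

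Rrp9, the U3 snoRNP-specific WD-repeat protein, was at 6.59, 6.39 and 6.49 in sham and at 6.32, 6.23 and 6.18 in castrated samples. The groups were apart, though sham sample 2 was close to castrated sample 1. The difference was −0.24 (standard error 0.10, limma adjusted p = 0.691). Utp4, a WD-repeat subunit of the UtpA complex that binds the nascent precursor early, read 9.35, 9.43 and 9.47 in sham and 9.14, 9.12 and 9.34 in castrated samples, a difference of −0.22 (standard error 0.10, limma adjusted p = 0.721). Castrated sample 3 came close to the lowest sham sample.

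The other UtpA subunits in the set pointed the same way. Nol11 read 7.22, 7.42 and 7.44 in sham and 6.93, 7.16 and 7.23 in castrated samples, a difference of −0.25 (standard error 0.12), and castrated sample 3 overlapped sham sample 1. Further, dim probe sets of Nol11 differed by 0.22 and 0.11, so its direction rests on the brightest probe set. Utp15 differed by −0.12. The 2 UtpB subunits, Utp18 and Utp6, differed by −0.14 and −0.019. The 2 UtpC subunits, Rrp7a and Nol6, differed by −0.13 and −0.056. Rrp7a read 7.10, 6.87 and 6.93 in sham and 6.70, 6.95 and 6.87 in castrated samples. Its groups overlapped, the difference was −0.058 without castrated sample 1, and a dimmer probe set of Rrp7a differed by 0.16.

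Of the proteins that act beside the U3 RNA, Imp3 and Imp4 differed in sign. Imp3 was at −0.21 (standard error 0.12) and its further probe set also at −0.21. Imp4 read 6.78, 6.62 and 6.77 in sham and 6.86, 6.76 and 6.79 in castrated samples, which overlap, with a difference of 0.080 (standard error 0.098). Utp3, a further processome member, differed by −0.21 and Utp14a, the activator of a processome helicase, by −0.20. Rrp12, which takes part in export and maturation of the pre-40S particle, read 8.72, 8.59 and 8.40 in sham and 8.34, 8.36 and 8.36 in castrated samples. The difference was −0.22 (standard error 0.11, limma adjusted p = 0.744), the sham samples were spread widely, and sham sample 3 lay just above the castrated ones. The remaining processome members lay between −0.11 for Nol10 and 0.051 for Rrp36, with Utp20, Utp23, Nop9, Nop14, Utp25 and Nol7 among them.

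**Figure D3:**
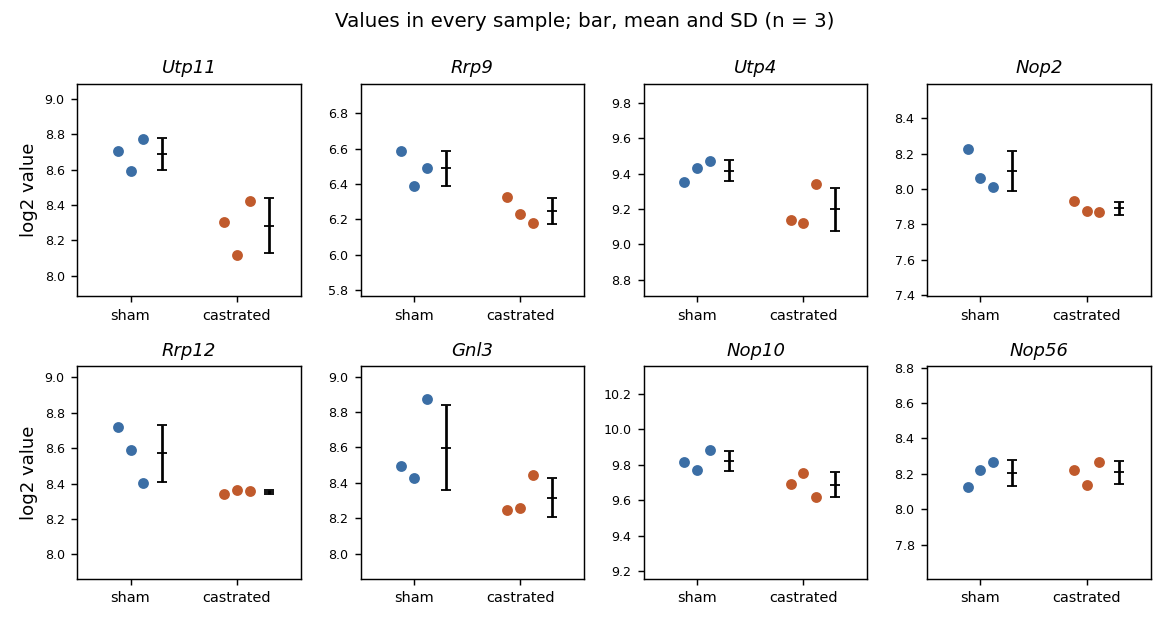
Log2 values in each sample for 8 members, with sham in blue, castrated in orange, and the mean and SD (n = 3) beside each group. Vertical axes differ in position but all span the same log2 range. Utp11 shows the widest separation, Gnl3 overlaps through castrated sample 3, and Nop56 stands at 8.20 in sham and 8.21 in castrated samples.

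Among the 15 factors of 60S assembly, 12 were below 0, with a median of −0.11. Gnl3, nucleostemin, a nucleolar GTPase, read 8.49, 8.43 and 8.87 in sham and 8.25, 8.26 and 8.45 in castrated samples. Sham sample 3 was far above the other sham samples, and castrated sample 3 overlapped sham sample 2. The difference was −0.28 (standard error 0.14, limma adjusted p = 0.726), and −0.14 without sham sample 3. Nop2, a methyltransferase of the large-subunit ribosomal RNA, read 8.23, 8.06 and 8.01 in sham and 7.93, 7.87 and 7.87 in castrated samples. Its castrated values lay close together and below every sham value, with a difference of −0.21 (standard error 0.10, limma adjusted p = 0.724). Rrp15 was at 6.04, 6.08 and 6.17 in sham and at 5.87, 5.97 and 5.92 in castrated samples, without overlap, a difference of −0.17 (standard error 0.094, limma adjusted p = 0.758).

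Pes1, Bop1 and Wdr12 form the PeBoW complex, which is needed for maturation of the large-subunit RNAs. Their differences were −0.12, −0.11 and −0.10, and those of Bop1 and Wdr12 each rested on 1 sample. Pes1 read 8.35, 8.33 and 8.35 in sham and 8.21, 8.20 and 8.25 in castrated samples. It was tightly grouped and lower in all castrated samples (difference −0.12, standard error 0.090, limma adjusted p = 0.809). Bop1 read 7.46, 7.29 and 7.12 in sham and 7.21, 7.17 and 7.17 in castrated samples, so the sham samples alone spanned the castrated range (difference −0.11, standard error 0.11). The Bop1 difference was −0.022 without sham sample 1 and −0.19 without sham sample 3. Wdr12 read 6.68, 6.80 and 6.91 in sham and 6.45, 6.77 and 6.86 in castrated samples (difference −0.10, standard error 0.13). Its difference came from castrated sample 1 and was 0.016 without it.

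The related GTPases had values on both sides of 0. Gnl2, a GTPase of 60S maturation, differed by −0.059 and Gnl3l, named for its likeness to Gnl3, by 0.036, each with overlapping groups. Rrp1 was lower without overlap by a small amount (difference −0.091), while Rrp1b differed by 0.012. Nol12 had the highest difference of all members. It read 6.41, 6.10 and 5.93 in sham and 6.10, 6.18 and 6.55 in castrated samples, so the groups overlapped broadly (difference 0.13, standard error 0.16). Nol8 (−0.19), Nop16 (−0.16), Nop53 (−0.15) and Nol9 (−0.0020) complete the group.

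**Figure D4:**
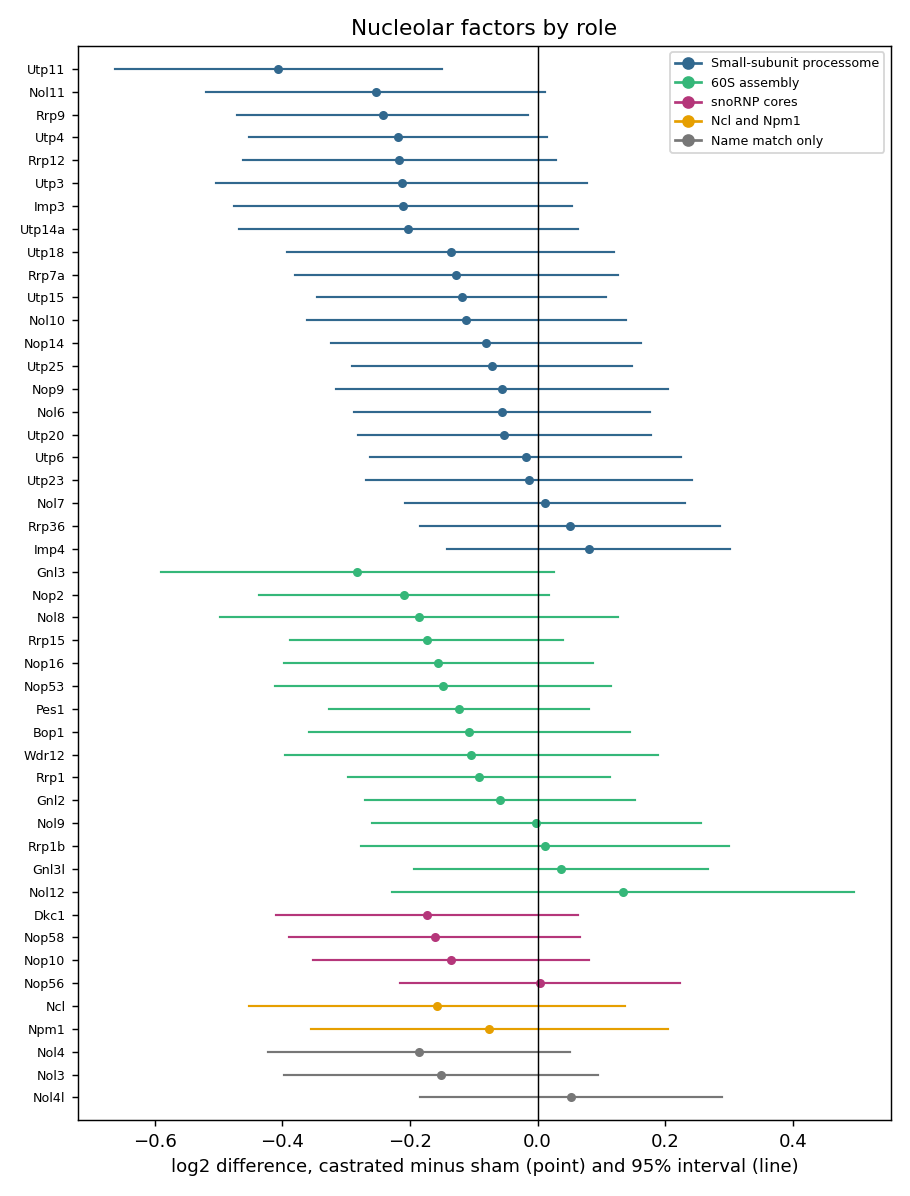
Log2 difference, castrated minus sham, for each of the 46 members (points) with its 95% interval from limma, unadjusted (lines), grouped by role and ordered by difference within a role. The intervals of Utp11 and Rrp9 lie wholly below 0, and those of the other 44 include 0.

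Of the 4 snoRNP core proteins measured, 3 were below 0 and none passed the test. Nop56 and Nop58 sit together in box C/D snoRNPs, which guide methylation of ribosomal RNA. Nop58 read 7.45, 7.32 and 7.42 in sham and 7.22, 7.15 and 7.35 in castrated samples, a difference of −0.16 (standard error 0.10), and castrated sample 3 overlapped sham sample 2. Nop56 read 8.13, 8.22 and 8.27 in sham and 8.22, 8.14 and 8.27 in castrated samples. Its groups coincided, with a difference of 0.0038 and a 95% interval from −0.22 to 0.22, which does not exclude a difference of the size seen for Nop58. Dimmer probe sets of Nop56 differed by 0.14 and −0.19.

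Dkc1, the pseudouridine synthase of box H/ACA snoRNPs and also a part of telomerase, read 7.21, 7.30 and 7.27 in sham and 6.98, 7.24 and 7.03 in castrated samples. Castrated sample 2 overlapped sham sample 1, and the difference was −0.17 (standard error 0.10, limma adjusted p = 0.781). Nop10, a small protein of the same particle, read 9.82, 9.77 and 9.88 in sham and 9.69, 9.76 and 9.62 in castrated samples. The groups were apart by a narrow margin between castrated sample 2 and sham sample 2, and the difference was −0.14 (standard error 0.095, limma adjusted p = 0.803).

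Nucleolin and nucleophosmin are abundant nucleolar phosphoproteins that bind RNA and histones. Ncl, nucleolin, read 8.99, 8.61 and 8.96 in sham and 8.68, 8.59 and 8.83 in castrated samples, with sham sample 2 among the castrated values (difference −0.16, standard error 0.13). The Ncl difference was −0.088 without sham sample 1 and −0.28 without sham sample 2. Npm1, nucleophosmin, read 8.88, 8.46 and 8.68 in sham and 8.57, 8.68 and 8.54 in castrated samples, with full overlap (difference −0.075, standard error 0.12). Without sham sample 1 the Npm1 difference was 0.027, and its dimmer probe set differed by 0.24, so its direction is undetermined.

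The name rule also took in 3 genes that are not known as ribosome biogenesis factors. Nol3 encodes an apoptosis repressor found in muscle, and differed by −0.15. Nol4 read 4.49, 4.41 and 4.51 in sham and 4.43, 4.18 and 4.24 in castrated samples, with an overlap through castrated sample 1 (difference −0.19, standard error 0.10). Nol4l read 4.77, 4.73 and 4.71 in sham and 4.83, 4.64 and 4.91 in castrated samples, with castrated values on both sides of sham (difference 0.052, standard error 0.10). Both Nol4 and Nol4l were dim, with means below the median probe set of every array (5.04 to 5.10), and their signal was not tested against background. The same holds for the processome member Utp23, with a mean of 4.98. Without Nol3, Nol4 and Nol4l the members' median was −0.12.

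The members' values were correlated across the arrays, but a correlation over all 6 arrays includes the group difference described above. Over the 6 arrays the mean Pearson correlation between pairs of members was 0.233, against 0.00061 between pairs of all genes and 0.021 between pairs of genes above the 50th percentile of mean value. After the mean of each group was taken out, the members' value was 0.075, against 0.00025 and 0.014. These are descriptions over 6 arrays, which all genes share together with their normalization.

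Ribosome biogenesis genes outside the name rule had differences of a similar size. In all, 108 such genes were measured, of which 85 were below 0 with a median of −0.089. Of the 108, 22 were lower without overlap, or 20.4%, where 7.02% of all genes were. Among all genes above the 50th percentile of mean value 10% were. The median of the 108 was −0.051 without castrated sample 1 and −0.056 without sham sample 3. None passed the limma threshold, with a smallest adjusted p of 0.549. The other small-subunit and pre-40S factors were below 0 for 26 of 32 genes (median −0.13), led by the UtpA subunit Wdr75 and the UtpB subunit Pwp2. Wdr75 read 8.38, 8.39 and 8.47 in sham and 7.89, 8.04 and 8.15 in castrated samples, and Pwp2 read 6.76, 6.78 and 6.92 in sham and 6.47, 6.61 and 6.59 in castrated samples. Neither had overlapping groups, and their adjusted p values in limma were 0.549 and 0.682. The other 60S factors were below 0 for 34 of 38 genes (median −0.098), with Ddx56 and Senp3 at the smallest p (limma adjusted p = 0.743 and 0.749). Their median was −0.046 without castrated sample 1 and −0.043 without sham sample 3, with 27 genes below 0 in each case.

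RNA polymerase I genes were below 0 for 11 of 15 (median −0.083), with Polr1d, a subunit shared with RNA polymerase III, at 7.54, 7.48 and 7.52 in sham and 7.20, 7.34 and 7.20 in castrated samples, and Twistnb next by p. With each gene centred on its mean, the list's median was 0.060, 0.0042 and 0.015 in the sham samples and −0.15, 0.045 and 0.020 in the castrated samples. The lower values thus lay in castrated sample 1, without which the median difference was −0.0090, and without sham sample 1 it was −0.023. The other snoRNP proteins were below 0 for 6 of 11 (median −0.012), with Nufip1, a snoRNP assembly factor, at 7.21, 7.02 and 7.32 in sham and 6.66, 6.73 and 6.92 in castrated samples, and Gar1 next. That median turned to 0.048 when castrated sample 1 was left out, to 0.039 for sham sample 1 and to 0.0085 for sham sample 2. The nuclear exosome, which trims precursor ends, was below 0 for 8 of 12 (median −0.062), with Exosc7 and Mphosph6 at the smallest p, and its median was −0.030 without sham sample 3 and −0.035 without castrated sample 3. Cytosolic ribosomal proteins were below 0 for 46 of 64 (median −0.074), and 4 of them, or 6.25%, were lower without overlap. The share was 7.02% of all genes and 10% of those above the 50th percentile of mean value. A further 2 of the 64 were higher without overlap, where 5.73% of all genes were. The centred median of the ribosomal proteins was 0.14, −0.027 and −0.015 in the sham samples and −0.011, −0.028 and −0.061 in the castrated samples. Sham sample 1 stood above the other 5 arrays, and without it 35 of 64 were below 0 with a median of −0.011. In that list Rpl17, at the 45.7th percentile of mean value, was higher at an unadjusted limma p under 0.05, where 3.62% of all genes were. Rpl32 had the next smallest p. In none of these lists did a gene pass over all genes.

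**Figure D5:**
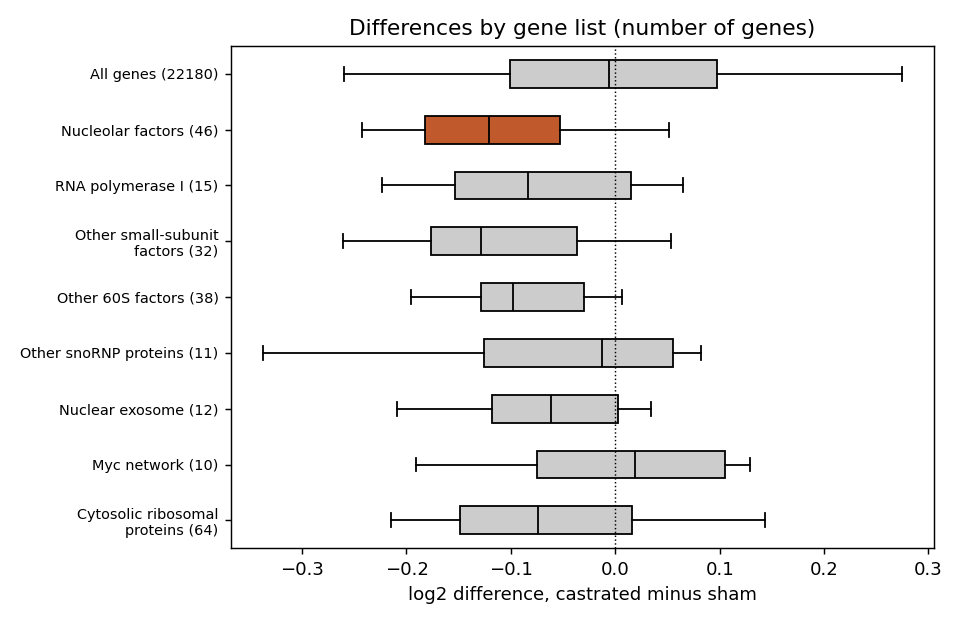
Log2 differences, castrated minus sham, for all genes, the nucleolar factors and 7 related lists, with the number of genes in brackets. Boxes span the quartiles with the median as a line, and whiskers reach the 5th and 95th percentiles. The medians are −0.0056 for all genes, −0.12 for the nucleolar factors and 0.019 for the Myc network.

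Myc, a transcription factor known to drive many ribosome biogenesis genes through the E-box sequence CACGTG, read 6.71, 6.81 and 6.82 in sham and 6.60, 6.85 and 6.66 in castrated samples. The groups overlapped and the limma adjusted p was 0.911. Myc with its partners and antagonists gave 5 of 10 genes below 0, with a median of 0.019 that ran from −0.017 to 0.052 with a sample left out, and Mlx and Mycl had the smallest p. Promoter sequences of RefSeq (GRCm38.p6), from 250 bases before to 50 after a transcript start, were at hand for 34 of the 46 members. CACGTG, which reads the same on both strands, was present for 9 of these 34 genes, or 26.5%, and for 9.22% of the 16918 genes on the array with such a promoter. Members with the E-box had a median difference of −0.13 and 8 of 9 were below 0, and the 25 without had a median of −0.12 and 19 below 0. A match is a description of letters and not of binding.

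Of the other motifs searched on both strands, CCGGAAGT (an ETS motif) was in 5 of the 34 members (14.7%, against 5.64% of all), CCAAT in 13 (38.2%, against 41.6%) and TATAAA in 5 (14.7%, against 14.3%). TTTCCCGC (an E2F motif) was in 1, and GCGCATGC (the core of an NRF1 motif) in 0 and AAGATGGC (the core of a YY1 motif) in 1, against 1.61%, 4.07% and 3.65% of all. The stretches below are shown because they hold the E-box, in capitals, within 150 bases before the transcript start, which was so for Nop2, Nol11, Utp18 and Imp4. Rrp7a and Utp25 hold it 208 and 245 bases before the start and are not printed. In Pes1, Utp4 and Utp20 it lies after the start, as do further matches in Utp25. Each printed stretch is 100 bases long, read 5′ to 3′ on the gene's strand.
Nop2, chr6:125131783-125131882, plus strand: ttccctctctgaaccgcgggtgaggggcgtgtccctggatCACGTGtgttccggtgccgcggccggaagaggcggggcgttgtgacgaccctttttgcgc
Nol11, chr11:107189382-107189481, minus strand: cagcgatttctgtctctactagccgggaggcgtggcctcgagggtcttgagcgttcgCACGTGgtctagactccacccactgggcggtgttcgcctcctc
Utp18, chr11:93885767-93885866, minus strand: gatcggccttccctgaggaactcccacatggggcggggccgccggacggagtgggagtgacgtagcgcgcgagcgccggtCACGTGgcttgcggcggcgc
Imp4, chr1:34439679-34439778, plus strand: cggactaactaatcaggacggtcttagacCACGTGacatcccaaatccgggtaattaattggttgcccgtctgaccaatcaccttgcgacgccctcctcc
The E-box begins 60 bases before the start in Nop2, 43 in Nol11, 20 in Utp18 and 121 in Imp4.

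The samples carried the markers of fast muscle, with 9 of 9 fast-fibre genes, such as Myh4 and Actn3, at or above the 99.6th percentile of mean value and differences from −0.17 to 0.13. In bulk tissue, fewer cells of a type and less RNA per cell cannot be told apart. Slow-fibre markers stood out in castrated sample 1, where Myh7 was at 7.41 against 5.11 to 5.40 elsewhere, and all 6 had a difference above 0. The mean log2 value of the 6 was 5.94 to 6.19 in sham samples, 7.33 in castrated sample 1, and 6.01 and 6.07 in the other castrated samples. Without that sample 37 of the 46 nucleolar factors were below 0, with a median of −0.095, and 12 were lower without overlap, where 11.6% of all genes were. Tendon markers were above 0 for 4 of 5 genes (sham mean log2 values of 6.25 to 6.81, castrated 6.77 to 7.13), adipocyte markers for 4 of 5 (sham 5.02 to 5.31, castrated 5.44 to 5.53) and endothelial markers for 5 of 5, satellite cell markers for 3 of 4, fibroblast markers for 3 of 5 and macrophage markers for 1 of 5, with 0 of them past the threshold. Markers of Schwann cells (1 of 2), smooth muscle and pericytes (2 of 4), blood and lymphocytes (1 of 2) and cycling cells (2 of 4) were above 0 in the numbers given. The part of these cell types in the members' differences was not tested.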

How the data were processed

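Affymetrix whole-transcript arrays were run on tibialis anterior RNA of 6 mice, with 300 ng of total RNA labelled per the labels' protocols. The deposited values are log2 values of 41345 probe sets, normalized by the authors. Partek is named without a version in the submitters' processing notes, and how background and normalization were handled is not given in the sources used here. The log2 scale was read from the range of the values, and array medians were 5.04 to 5.10. Arrays have no read depth, and their number limits the precision. Probe sets with a single gene symbol (23521) were used, with symbols updated by Entrez identifier, and the probe set with the highest mean stood for its gene.

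The test was limma's (version 3.58.1, R 4.3.3; lmFit then eBayes, without covariates), with Benjamini-Hochberg adjustment over 22180 genes at 0.05 and no filter on dim genes. Members and lists were chosen with earlier results of these data known, and lists were described by counts and medians with no list test. Members given with values in every sample were 12 core factors (Fbl, of these, not measured alone), the 8 with the smallest p, those with the lowest and highest difference per role, and those whose probe sets differ in sign. Of other lists the 2 genes with the smallest p, and Myc, were named. Utp25, placed in another list at first, was counted with the members it matches by name. The procedure was tested on simulated data in which every planted difference was larger than any member's. Its ability to detect differences of the members' size was not tested. Figures were drawn with matplotlib 3.10.9.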

Additional observations from a re-analysis of the deposited data

How the results depend on the processing

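No nucleolar factor and none of the other ribosome biogenesis genes passed the limma threshold in any alternative run, which included a threshold of 0.1, and cyclic loess was chosen after seeing the data. The number of members below 0 was 36 to 42, and the members' median was −0.16 to −0.091. The median was −0.16 after centring on array medians, and −0.15 to −0.095 with a sample left out. Over all genes the 3 calls became 9 with the filter at the 25th percentile of mean value and 16 at the 50th, where fewer genes are tested, and 10 with a trended robust prior, for which the cause was not tested. With a sample left out there were 3 to 4.

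Of 306 values for 22 named members, 294 kept their sign, but many of them could not change. The filters, the block by replicate number and the trended robust prior leave each member's difference as it was. Averaging probe sets does the same for members with a single probe set. With the mean of a gene's probe sets Nol11 was 0.025, Npm1 0.082, Rrp7a 0.018 and Nop56 −0.017. Nop56 was −0.034 after centring on array medians, −0.036 without sham sample 1, −0.0037 without castrated sample 1 and −0.025 without castrated sample 3. With a sample left out Nop56 ran up to 0.040, Nol12 from −0.0039 to 0.27, Nol4l from −0.0075 to 0.13, Npm1 from −0.18 to 0.027 and Wdr12 from −0.19 to 0.016.

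Same-numbered samples share no stated animal or day, and their deviations correlated at 0.033 to 0.076, with every sample closest to its own number, which is a hint from the data and not from the design. With the replicate number as a block 2 genes passed over all genes and 0 members passed. The block leaves every difference as it was, so the 38 members below 0 and the median of −0.12 could not change.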

Other observations

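Several nucleolar factors are also host genes, with small nucleolar RNAs encoded inside them. By the RefSeq gene annotation, 6 of the members contain snoRNA genes, 16 in all, and 8 of these snoRNAs, in 5 hosts, had a probe set of their own. Of the 8, 7 had a difference below 0 and 1 above, and none passed the limma threshold (adjusted p from 0.808 to 0.985). Snord82, inside Ncl, read 11.03, 10.32 and 10.45 in sham and 10.46, 10.57 and 10.47 in castrated samples, and Snora75, in the same host, read 6.60, 6.69 and 7.00 in sham and 6.93, 7.05 and 6.85 in castrated samples. Ncl itself differed by −0.16, Snord82 by −0.099 and Snora75 by 0.18. Snord110, inside Nop56, differed by −0.12, Snord69 and Snord19, inside Gnl3, by −0.18 and −0.097, Snord11 and Snord70, inside Nop58, by −0.20 and −0.028, and Snord23, inside Nop53, by −0.048. The groups overlapped for all 8. The direction rests on sham sample 1: without it all 8 had a difference above 0, from 0.0012 for Snord23 to 0.22 for Snord70. That sample was the highest of the 6 for Snord82, Snord110, Snord69, Snord19, Snord11, Snord70 and Snord23. A probe set annotated to both Snord57 and its host Nop56 was not counted among the 8 and was not tested. It read 10.59, 10.24 and 10.19 in sham and 10.12, 10.13 and 9.90 in castrated samples, a difference of −0.29, with sham sample 1 again the highest.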
